A study of Mus musculus with 10 samples.

Results

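The genes described here are 9 members of the complement system: C1qa, C1qb and C1qc, the central components C3 and C4b, the receptors C3ar1 and C5ar1, and the inhibitors Serping1 and Cd59a. They were found in the deposited count table by matching its Ensembl identifiers to gene symbols, and 8 of the 9 are among its 14276 genes. C5ar1, the receptor for the fragment C5a, was not analysed here. The study compared the cerebral cortex of 3-month-old C57BL/6 mice in which the gene Brap was conditionally knocked out (BrapcKO) with that of control littermates, 5 libraries each, sequenced from total RNA depleted of ribosomal RNA. Brap encodes a ubiquitin ligase known to restrain signalling from Ras to MAP kinases. All libraries carried at least 1 flox allele of Brap, an allele that Cre recombinase can inactivate. Libraries labelled BrapcKO were flox/ko Cre+ (04, 07 and 21) or flox/flox Cre+ (05 and 06), and control libraries were flox/wt Cre- (08, 22 and 23) or flox/flox Cre- (09 and 24). The promoter that drives Cre is not named in the sources used here, and because Cre was present in every BrapcKO library and in no control library, its own effect and that of the knockout cannot be told apart.

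Complement is a cascade of secreted proteins that marks targets for removal. In the classical pathway C1q, built from the chains encoded by C1qa, C1qb and C1qc, binds a target and activates proteases that cleave C4 and then C3; the fragments tag the target, and the released C3a acts through the receptor C3ar1. C1 inhibitor (Serping1) blocks the first proteases, and CD59 (Cd59a) blocks the final membrane attack complex. In the brain, microglia are the known main source of C1q, astrocytes are known to make C4 and C3, and complement tags synapses for removal by microglia.

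The libraries differed in more than group. Sequencing depth lay between 17188901 and 28991874 counts, so levels are given as CPM, counts scaled to the library total after its adjustment by TMM. Sample titles carry a code, B1 or B2, of unstated meaning: B1 holds 2 control and 4 BrapcKO libraries, B2 holds 3 control and 1 BrapcKO library, and the code was a term in the fit used below. Y-linked genes (Ddx3y, Uty, Kdm5d and Eif2s3y) summed to at least 263 CPM in control 23 and in BrapcKO 05, 06, 07 and 21, and to at most 0.257 CPM in the other 5 libraries, so 1 control and 4 BrapcKO libraries expressed them. Brap itself, the targeted gene, gave no lower counts under the BrapcKO label: it measured 76.7 to 98.6 CPM in control and 89.0 to 110.5 CPM in BrapcKO, a log2 difference of 0.23 (SE 0.10, adjusted p = 0.182). By genotype it was higher in flox/ko Cre+ than in flox/wt Cre- (log2 difference 0.39, adjusted p = 0.0402) and differed by −0.04 between flox/flox Cre+ and Cre- (adjusted p = 0.921). The first of these calls was lost without any 1 of the 6 libraries of its pair (BrapcKO 04, 07 and 21, control 08, 22 and 23; adjusted p up to 0.16) or without the title code (adjusted p = 0.0954). Counts per gene over the whole transcript need not fall when a deletion removes only some exons, and the deleted exons are not named in the sources used here, so this value does not check the labels. In edgeR's quasi-likelihood test, 8.07% of all genes changed in either direction at an adjusted p under 0.05, the threshold for a call throughout, and 3.12% rose.

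Sequences upstream of the start are shown for the 4 called members that matched the RefSeq promoter table of GRCm38.p6, since these genes rose together; 6 of the 9 members matched, and C1qa, C4b and Serping1 did not. Each is written 5′ to 3′ on the gene's strand and ends before the RefSeq start or the first annotated exon base, whichever comes first, so that C1qc and C3ar1 are shorter than the 250 bases of the others. Capitals mark matches to any of 4 motifs searched on both strands: GAGGAA, a core bound by PU.1, the lineage factor of microglia; TGANTCA, the AP-1 site; TTCNNNGAA, a STAT site; and an interferon response core. The C1qb stretch is chr4:136886201-136886450, minus strand. C1qc is at chr4:136893066-136893164, minus strand. C3 is at chr17:57228137-57228386, minus strand. C3ar1 is at chr6:122856162-122856407, minus strand.
C1qb: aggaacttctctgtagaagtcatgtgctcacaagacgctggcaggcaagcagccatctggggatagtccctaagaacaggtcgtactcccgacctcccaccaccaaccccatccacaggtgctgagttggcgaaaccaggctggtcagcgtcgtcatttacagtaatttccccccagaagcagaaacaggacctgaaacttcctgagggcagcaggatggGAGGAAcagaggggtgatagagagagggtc
C1qc: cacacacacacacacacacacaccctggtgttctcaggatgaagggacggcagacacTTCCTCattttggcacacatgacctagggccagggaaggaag
C3: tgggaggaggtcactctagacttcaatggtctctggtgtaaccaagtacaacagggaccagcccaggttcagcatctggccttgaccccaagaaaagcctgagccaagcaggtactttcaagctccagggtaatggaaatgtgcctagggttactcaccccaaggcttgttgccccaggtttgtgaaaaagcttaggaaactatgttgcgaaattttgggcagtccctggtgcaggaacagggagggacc
C3ar1: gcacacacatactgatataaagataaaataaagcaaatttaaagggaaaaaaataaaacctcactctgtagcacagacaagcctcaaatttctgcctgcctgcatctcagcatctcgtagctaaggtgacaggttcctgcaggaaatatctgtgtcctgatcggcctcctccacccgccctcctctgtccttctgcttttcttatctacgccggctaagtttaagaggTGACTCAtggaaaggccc
The C1qb sequence held GAGGAA from 30 to 25 bases before the start. C1qc held the same letters on the opposite strand, printed as TTCCTC, from 193 to 188 bases before the RefSeq start. In C3ar1 a TGANTCA match lay 22 to 16 bases before the start, and C3 held none of the 4. Cd59a, which was not called and is not shown, held GAGGAA from 62 to 57 bases before the start. Cd59a also held the interferon response core, from 187 to 178 bases before the start. Among 32851 promoters, GAGGAA occurred in 23.3%, TTCNNNGAA in 7.02%, TGANTCA in 6.75% and the interferon response core in 2.98% of windows of 250 bases, so a match is a description and no site of binding. The matches did not overlap each other.

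Of the 8 members measured, 6 rose in the BrapcKO libraries and none fell, where 3.12% of all genes rose. These were the C1q genes, C3, C4b and C3ar1. Serping1 and Cd59a, the inhibitors, passed no threshold. In each of the 6 that rose, all 5 BrapcKO libraries lay above all 5 control libraries, as did 3.12% of all genes. The median log2 difference was 1.48 over the 8 members and 0.01 over all genes tested. In whole cortex, more cells of a type and more RNA per cell cannot be told apart.

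**Figure D1:**
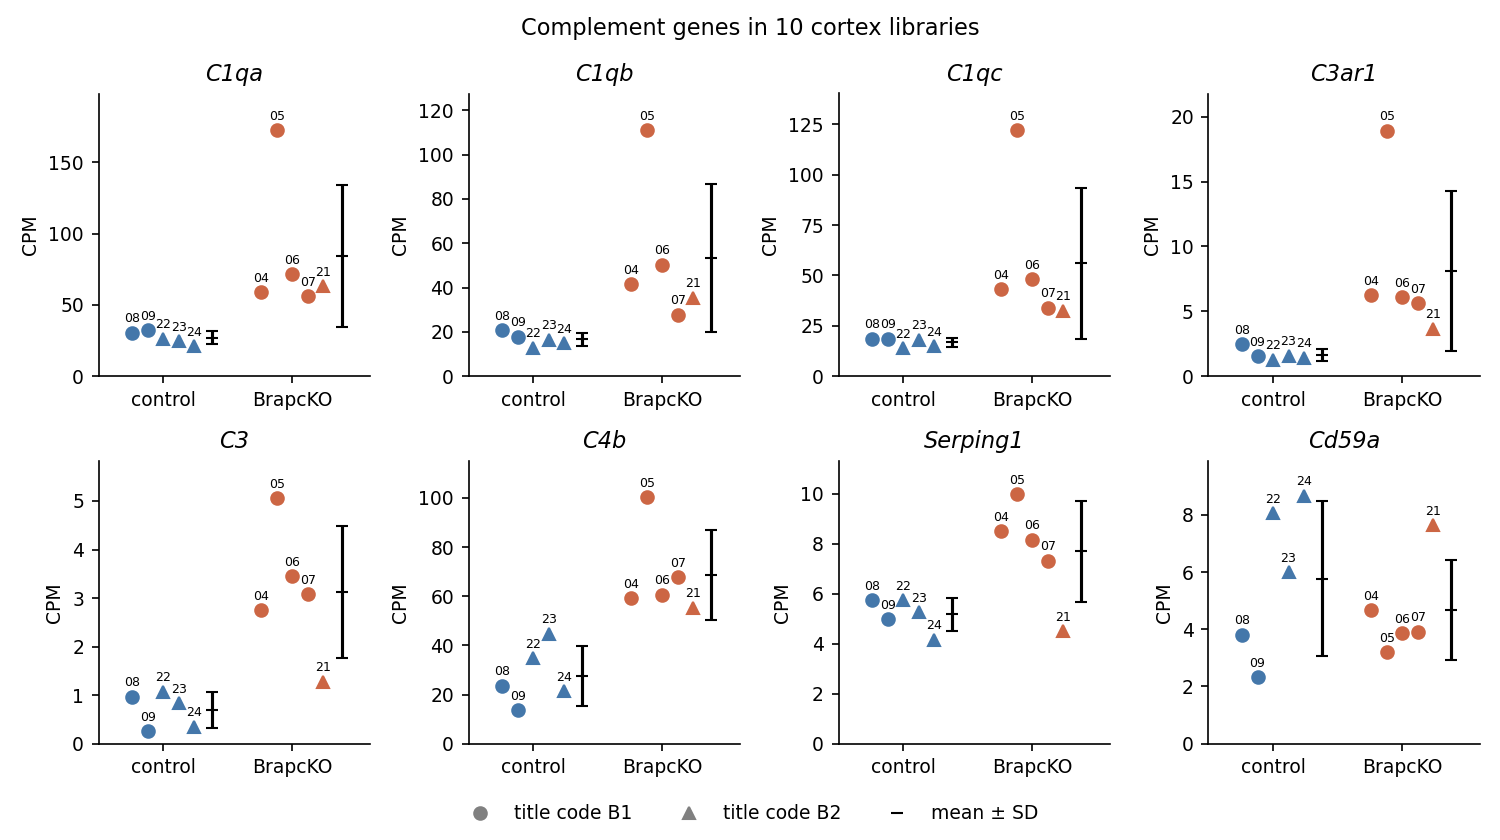
Level of each complement gene in each library in CPM, by group, with circles for title code B1, triangles for B2 and bars for the mean ± SD of 5 libraries; each panel has its own axis from 0. For C1qa, C1qb, C1qc, C3, C3ar1 and C4b every BrapcKO library lies above every control library, BrapcKO 05 is the highest for each, and Serping1 and Cd59a overlap.

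C1qa, which encodes the A chain of C1q (ENSMUSG00000036887.5, chromosome 4, 136895917 to 136898803, minus strand, GRCm38), was at 30.4, 32.2, 26.2, 24.6 and 20.9 CPM in control 08, 09, 22, 23 and 24. In BrapcKO 04, 05, 06, 07 and 21 it was at 58.9, 172.8, 71.6, 55.95 and 63.3 CPM. The groups did not overlap, BrapcKO 05 stood far above the other 4, and the mean was 26.9 ± 4.53 CPM in control and 84.5 ± 49.7 CPM in BrapcKO (SD, n = 5 each). The log2 difference was 1.48 (SE 0.33, 95% interval 0.74 to 2.21, adjusted p = 0.0246), a 2.78-fold rise.

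C1qb, the B chain gene (ENSMUSG00000036905.8, chromosome 4, 136880129 to 136886187, minus strand), measured 20.8, 17.8, 12.9, 16.4 and 14.95 CPM in the control libraries in the same order. It measured 41.5, 111.1, 50.2, 27.7 and 35.4 CPM in the BrapcKO libraries. Here too all BrapcKO libraries were higher, with 07 the nearest to control. The log2 difference was 1.46 (SE 0.37, interval 0.64 to 2.29, adjusted p = 0.0414). C1qc, the C chain gene (ENSMUSG00000036896.5, chromosome 4, 136889804 to 136893065, minus strand), gave 18.7, 18.5, 13.8, 18.0 and 14.8 CPM for the control libraries and 43.2, 122.1, 48.1, 34.1 and 32.5 CPM for BrapcKO. Both groups were again separate, and the log2 difference was 1.49 (SE 0.39, interval 0.62 to 2.37, adjusted p = 0.0478).

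The 3 chains, which assemble together in the C1q protein, kept nearly the same proportions in both groups. The ratio of C1qa to C1qb, in CPM without correction for length, was 1.64 ± 0.27 in control and 1.64 ± 0.26 in BrapcKO (SD, n = 5 each). The ratio of C1qc to C1qb was 1.02 ± 0.08 and 1.05 ± 0.12. Summed over the 3 genes, the level was 69.8, 68.5, 52.9, 59.1 and 50.6 CPM in control and 143.7, 406, 169.9, 117.7 and 131.2 CPM in BrapcKO. Without BrapcKO 05 the log2 differences were 1.16 for C1qa, 1.14 for C1qb and 1.14 for C1qc, and all 3 remained called. The C1qa call was lost without control 08, 09, 23 or 24 or BrapcKO 21 (adjusted p up to 0.151). C1qb and C1qc lost theirs whichever control library was left out, and without BrapcKO 06 or 21 (adjusted p up to 0.178 and 0.177), with log2 differences of at least 1.37 for C1qb and 1.40 for C1qc when one of these libraries was left out.

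The sum of microglia markers was higher in the same libraries. The sum of 15 microglia genes was 363 to 405 CPM in control, 450 to 525 CPM in BrapcKO 04, 06, 07 and 21, and 1216 CPM in BrapcKO 05. None of the 15 was called by edgeR or limma-voom. DESeq2 called 1 (Aif1), where it called 1682 of all 14276 genes in either direction. An unadjusted p under 0.05 was found for 3 of the 15 and for 22.2% of all genes. The median log2 difference was 0.47, with 13 of the 15 positive and P2ry13 (−0.09) and Sall1 (−0.02) negative. P2ry12, a receptor of resting microglia, differed by 0.18 (adjusted p = 0.723), Tmem119 by 0.30 (adjusted p = 0.197), Cx3cr1 by 0.46 (adjusted p = 0.502), and Trem2, a lipid receptor, by 1.26 (adjusted p = 0.239). Per 1000 CPM of these markers, summed C1q was 125 to 175.9 CPM in control and 245.3 to 333.9 CPM in BrapcKO, with means of 153 ± 23.0 and 301 ± 36.5 (SD, n = 5 each) and no overlap. So C1q was also higher relative to the markers, in BrapcKO 05 (333.9) as in the other 4 BrapcKO libraries. Of 8 border macrophage markers 7 were measured and none was called by edgeR, DESeq2 or limma-voom or had an unadjusted p under 0.05 (36.6 to 47.5 CPM in control, 35.8 to 51.1 CPM in BrapcKO). Of 10 blood leukocyte markers only Ccr2 was measured, at 0.35 to 0.87 CPM in control and 0.39 to 2.05 CPM in BrapcKO.

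**Figure D2:**
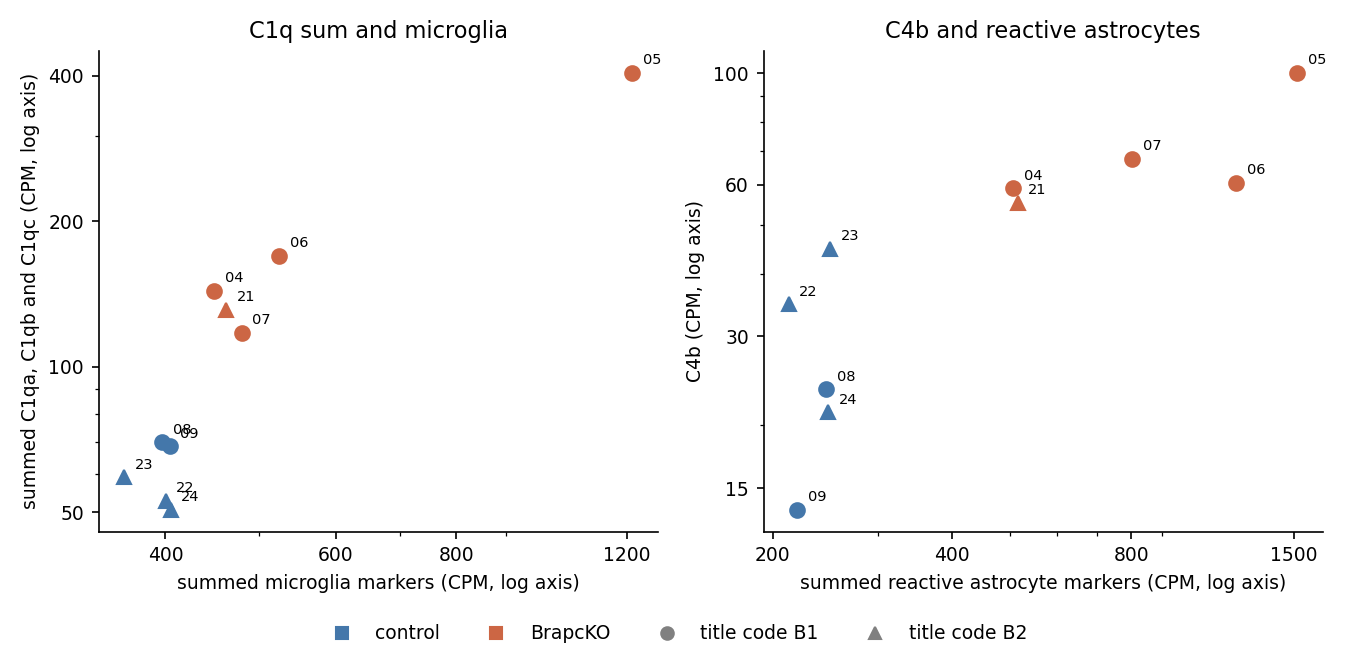
Left, summed C1qa, C1qb and C1qc against summed microglia markers; right, C4b against summed reactive astrocyte markers, in CPM on log axes, 1 point per library. BrapcKO libraries lie above control libraries on both axes in both panels, with BrapcKO 05 at 1216 CPM of microglia markers and 406 CPM of C1q.

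C3 is the component on which all complement pathways converge (ENSMUSG00000024164.15, chromosome 17, 57203970 to 57228136, minus strand). It was the least abundant member, with 19, 5, 31, 24 and 9 counts in control 08, 09, 22, 23 and 24 (0.967, 0.257, 1.07, 0.838 and 0.347 CPM). The BrapcKO libraries held 53, 90, 73, 63 and 36 counts (2.75, 5.05, 3.45, 3.08 and 1.27 CPM). BrapcKO 21 lay closest to the controls without overlapping them. The log2 difference was 1.84 (SE 0.48, interval 0.80 to 2.87, adjusted p = 0.0348), a 3.57-fold rise. Every gene in the table reaches 0.582 CPM in 5 or more libraries. C3 reached that level in 3 control and 5 BrapcKO libraries, so its place in the table rests partly on the group in which it was high. Its call was lost without control 08 or 09 or BrapcKO 06 or 07 (log2 difference 1.31 without control 09, adjusted p up to 0.134).

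C4b, mouse complement C4 (ENSMUSG00000073418.4, chromosome 17, 34728380 to 34743882, minus strand), was at 23.6, 13.6, 34.8, 44.8 and 21.2 CPM in control. In BrapcKO it was at 59.2, 100.2, 60.6, 67.7 and 55.3 CPM. Control libraries differed among themselves by more than 3-fold, yet the highest, control 23, was below the lowest BrapcKO library. The log2 difference was 1.51 (SE 0.35, interval 0.74 to 2.29, adjusted p = 0.0279). C4b has a near-identical copy, C4a, which was not analysed here, so reads from the copy could be counted as C4b and its value is uncertain. Its call was lost without control 08 or 09 or BrapcKO 07 (adjusted p up to 0.115). Without control 09 its log2 difference was 1.16.

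Part of the reactive astrocyte list rose as well. Of 12 genes listed, 10 were measured and 5 rose, where 3.12% of all genes rose. Called were the filament genes Gfap (log2 2.05) and Vim (1.81) and the protease inhibitor gene Serpina3n (1.67). The cytokine receptor gene Osmr (1.13) and Aspg (1.26) were also called. Not called were Timp1 (2.12, adjusted p = 0.0515), Cd44 (1.49, adjusted p = 0.0727), Hspb1 (0.36), Cp (0.14) and S1pr3 (−0.15). The 10 measured genes summed to 213 to 250 CPM in control and 507 to 1519 CPM in BrapcKO. That sum and C4b were both highest in BrapcKO 05. BrapcKO 04 and 06 had sums of 507 and 1201 CPM, with C4b at 59.2 and 60.6 CPM. The 12 general astrocyte markers held no call by edgeR, DESeq2 or limma-voom, no unadjusted p under 0.05 and a median log2 difference of 0.03. C4b per 1000 CPM of those general markers was 1.88 to 7.45 CPM in control and 8.55 to 12.1 CPM in BrapcKO. The part of the astrocyte genes in the C4b and C3 results was not tested. In the same libraries 5 of 8 genes typical of striatum rose, where 3.12% of all genes rose. DESeq2 and limma-voom each called 6 of the 8, where they called 1682 and 1172 of all 14276 genes in either direction. The striatum genes summed to 354 to 848 CPM in control and 629 to 1386 CPM in BrapcKO. Choroid plexus genes, which can enter a cortex dissection, summed to 45.1 to 2337 CPM in control and 116 to 683 CPM in BrapcKO. The 10 neuron markers, which include Slc17a7 of excitatory neurons, summed to 7671 to 8165 CPM in control and 6463 to 7737 CPM in BrapcKO. Of these markers 2 rose and 2 fell, where 8.07% of all genes changed in either direction. DESeq2 called 6 of the neuron markers and limma-voom 4, beside the same 1682 and 1172 of all genes. Oligodendrocyte markers summed to 3284 to 4542 CPM in control and 2411 to 3331 CPM in BrapcKO. The part of these genes in the complement results was not tested either.

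C3ar1, the G protein-coupled receptor for C3a (ENSMUSG00000040552.8, chromosome 6, 122847138 to 122856161, minus strand), was at 2.44, 1.54, 1.28, 1.57 and 1.43 CPM in control, from 30 to 48 counts. In BrapcKO it was at 6.22, 18.9, 6.09, 5.62 and 3.65 CPM, from 103 to 337 counts. The groups were separate, with BrapcKO 05 again far above the rest. Its log2 difference, 1.89 (SE 0.41, interval 0.99 to 2.79, adjusted p = 0.0161), was the largest of the members, a 3.70-fold rise, with an interval that overlaps those of the other 5 genes that rose. Per 1000 CPM of microglia markers it was 3.20 to 6.15 CPM in control and 7.89 to 15.6 CPM in BrapcKO. Without BrapcKO 05 the log2 difference was 1.50 and the gene remained called; the call was lost without control 08 or 09 or BrapcKO 21 (adjusted p up to 0.0862).

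Serping1, which encodes C1 inhibitor (ENSMUSG00000023224.12, chromosome 2, 84765387 to 84775444, minus strand), was at 5.75, 4.99, 5.75, 5.27 and 4.16 CPM in control and at 8.50, 9.997, 8.17, 7.33 and 4.50 CPM in BrapcKO. The 4 BrapcKO libraries of code B1 exceeded every control, and BrapcKO 21 of code B2 lay within the control range. With the code as a term the log2 difference was 0.37 (SE 0.19, interval −0.05 to 0.78, adjusted p = 0.292), an interval that reaches from no difference to a rise of 0.78. Relative to 1000 CPM of endothelial markers Serping1 was 22.0 to 33.8 CPM in control and 25.0 to 47.8 CPM in BrapcKO, again with overlap. Cd59a, which encodes the membrane anchored inhibitor CD59 (ENSMUSG00000032679.12, chromosome 2, 104095801 to 104115354, plus strand), was at 3.82, 2.32, 8.07, 6.00 and 8.67 CPM in control and at 4.67, 3.20, 3.87, 3.91 and 7.65 CPM in BrapcKO. The groups overlapped, and the log2 difference was 0.22 (SE 0.20, interval −0.21 to 0.64, adjusted p = 0.579).

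Cd59a followed the title code instead. Its B1 libraries measured 2.32 to 4.67 CPM and its B2 libraries 6.00 to 8.67 CPM, whatever their group. In a comparison added after the values were seen, it was 1.16 higher on the log2 scale in B2 than in B1 (SE 0.20, adjusted p = 8e-04), the one member called. That comparison called 25.1% of all genes in either direction. Because BrapcKO libraries are mostly B1, the sign for Cd59a depended on the code: without it as a term the log2 difference was −0.31 (adjusted p = 0.681).

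To set genes side by side, levels were divided by exon length (CPM per kilobase of merged exons), so the order depends on the annotated lengths. C1qb and C1qc had near-equal mean control CPM (16.6 and 16.7) and merged exons of 1088 and 1931 bases. Their separation below therefore rests on the lengths. In control the order was C1qa at 25.8, C1qb at 15.2, C1qc at 8.67, C4b at 4.85, Cd59a at 3.19, Serping1 at 2.23, C3ar1 at 0.384 and C3 at 0.135 CPM per kilobase. Over the control libraries, C1qa (20.1 to 31.0) was apart from C1qb (11.9 to 19.1) and C1qb from C1qc (7.14 to 9.67), while C1qc and C4b (2.39 to 7.87) overlapped, as did C4b and Cd59a, and Cd59a and Serping1. C3ar1 and C3 did not overlap each other or any other member. In BrapcKO the means, in CPM per kilobase, were 81.3 for C1qa, 48.9 for C1qb, 29.0 for C1qc, 12.05 for C4b, 3.31 for Serping1, 2.57 for Cd59a, 1.88 for C3ar1 and 0.607 for C3. C3ar1 (0.847 to 4.396) there overlapped Serping1 (1.93 to 4.30) and Cd59a (1.77 to 4.22), which it did not in control.

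The calls depended on which terms the fit held. With group as the only term the same 6 members were called (1.83% of all genes rose in that fit), and their log2 differences ran from 1.31 for C4b to 2.29 for C3ar1. DESeq2 (4.97% of genes rose) and limma-voom (3.06%) also called these 6. The Y-linked level used as a term was the mean log2 CPM of the 4 Y-linked genes, scaled to run from 0 to 1. With it added to the title code, none of the 8 was called (0.644% of genes rose). At an unadjusted p under 0.05 stood 7 of the 8, and 14.9% of all genes. In that fit the log2 differences were 1.14 for C1qa (SE 0.44, adjusted p = 0.256), 1.13 for C1qb (adjusted p = 0.303), 1.10 for C1qc (adjusted p = 0.317), 1.54 for C3 (adjusted p = 0.246), 1.49 for C3ar1 (adjusted p = 0.194) and 1.14 for C4b (adjusted p = 0.184). With the Y-linked level in place of the code, again none was called (0.21% of genes rose) and 7 had an unadjusted p under 0.05, as had 12.7% of all genes.

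**Figure D3:**
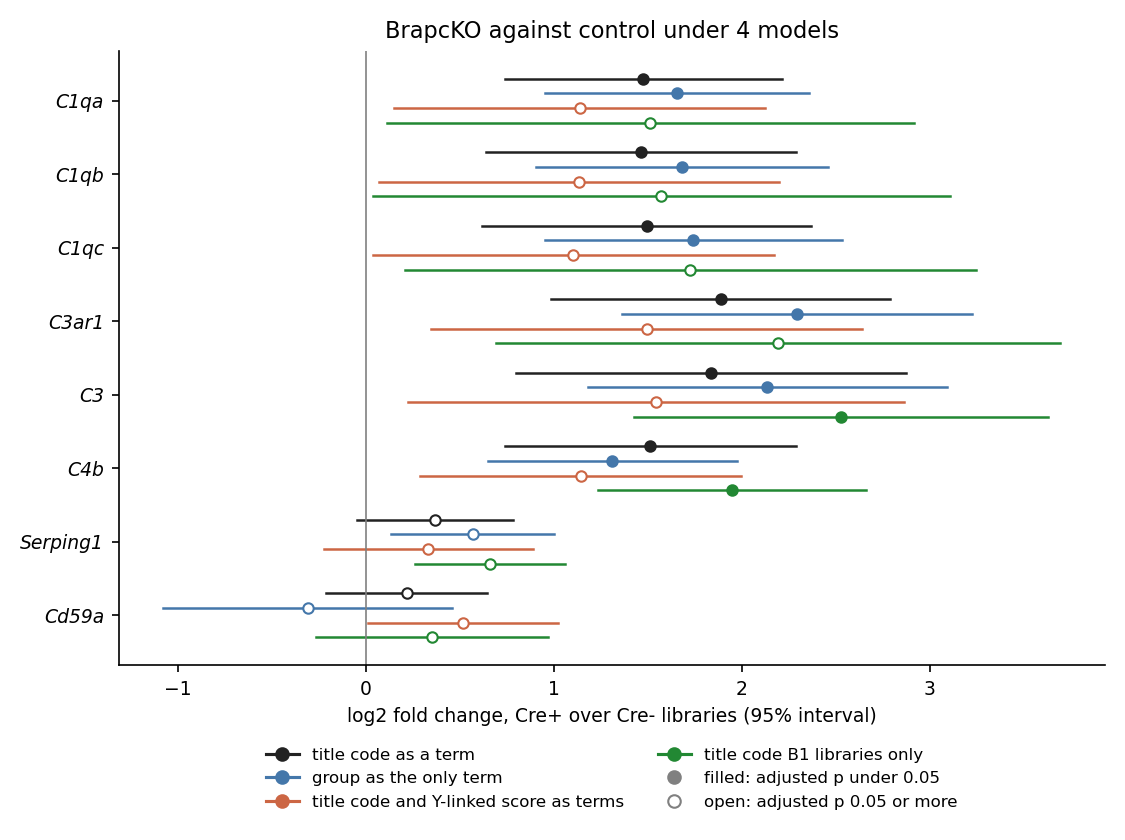
Log2 difference of BrapcKO over control for each complement gene with its 95% interval, under fits with different terms; filled symbols have an adjusted p under 0.05. C3ar1 stands at 1.89 in the fit with the title code and at 1.49 once the Y-linked level is added; Serping1 (0.37) and Cd59a (0.22) have intervals that include 0 in the first of these fits.

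Within code B1 alone, 4 BrapcKO against 2 control libraries, C3 (log2 difference 2.53, adjusted p = 0.035) and C4b (1.95, adjusted p = 0.0245) were called, where 0.792% of genes rose. The C1q genes differed there by 1.51, 1.57 and 1.73 and C3ar1 by 2.19, with adjusted p from 0.132 to 0.270. In B2, with 1 BrapcKO library, no such fit was made; BrapcKO 21 lay above the 3 B2 controls for all 6 genes.

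Genotype pairs within the groups gave different sizes. The flox/flox libraries with and without Cre (2 of each) share their labelled Brap alleles. Between them the same 6 members rose, against 0.336% of genes. Mean C3 was 4.25 and 0.302 CPM in these 2 genotypes (log2 difference 3.49, adjusted p = 0.0168), mean C4b 80.4 and 17.4 CPM (2.41, adjusted p = 0.0133), and mean C1qa 122 and 26.6 CPM (2.12, adjusted p = 0.0478). When the flox/ko Cre+ libraries were set against the flox/wt Cre- ones (3 of each), none of the members was called, while 1.77% of genes rose; 6 had an unadjusted p under 0.05, as had 19.4% of all genes. There C3 was at 2.37 and 0.959 CPM (1.05, adjusted p = 0.142), C4b at 60.7 and 34.4 CPM (0.99, adjusted p = 0.054), and C1qa at 59.4 and 27.1 CPM (1.08, adjusted p = 0.078). These fits hold the title code and pool the spread over 4 genotypes.

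The difference between the 2 contrasts itself was called for no gene of the table at an adjusted p under 0.05. It had an unadjusted p under 0.05 in 7 of 8 members and in 6.12% of all genes, with C3 differing by 2.44 (SE 0.59, adjusted p = 0.53) and C4b by 1.43 (SE 0.37, adjusted p = 0.60). That count rests on single libraries: it was 2 of 8 without BrapcKO 05, BrapcKO 07 or control 09, 23 or 24. Without BrapcKO 05 the median difference over the members went from 1.19 to 0.44 and that of C1qa from 1.04 to 0.27. Without BrapcKO 06, C1qa (1.54, adjusted p = 0.0493) and C1qc (1.72, adjusted p = 0.0237) were called. The flox/flox pair rests on few libraries: both Cre+ ones expressed Y-linked genes and neither Cre- one did, and BrapcKO 05 is among them. Both Cre+ ones carry code B1, while control 09 carries B1 and control 24 carries B2. The 6 calls of the flox/flox pair fell to 1 (C3) without the title code as a term or without control 24, and to 0 without control 09. C3 and C4b alone were called without BrapcKO 04 or 21 or control 08, 22 or 23, none of which is in the pair, and 3 members without BrapcKO 07. All 6 remained without BrapcKO 05 or 06. In the flox/ko pair, 5 members were called without BrapcKO 05 or without BrapcKO 06, neither of which is in the pair. C4b alone was called there without BrapcKO 21, which is in the pair, and no member without any other library.

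**Figure D4:**
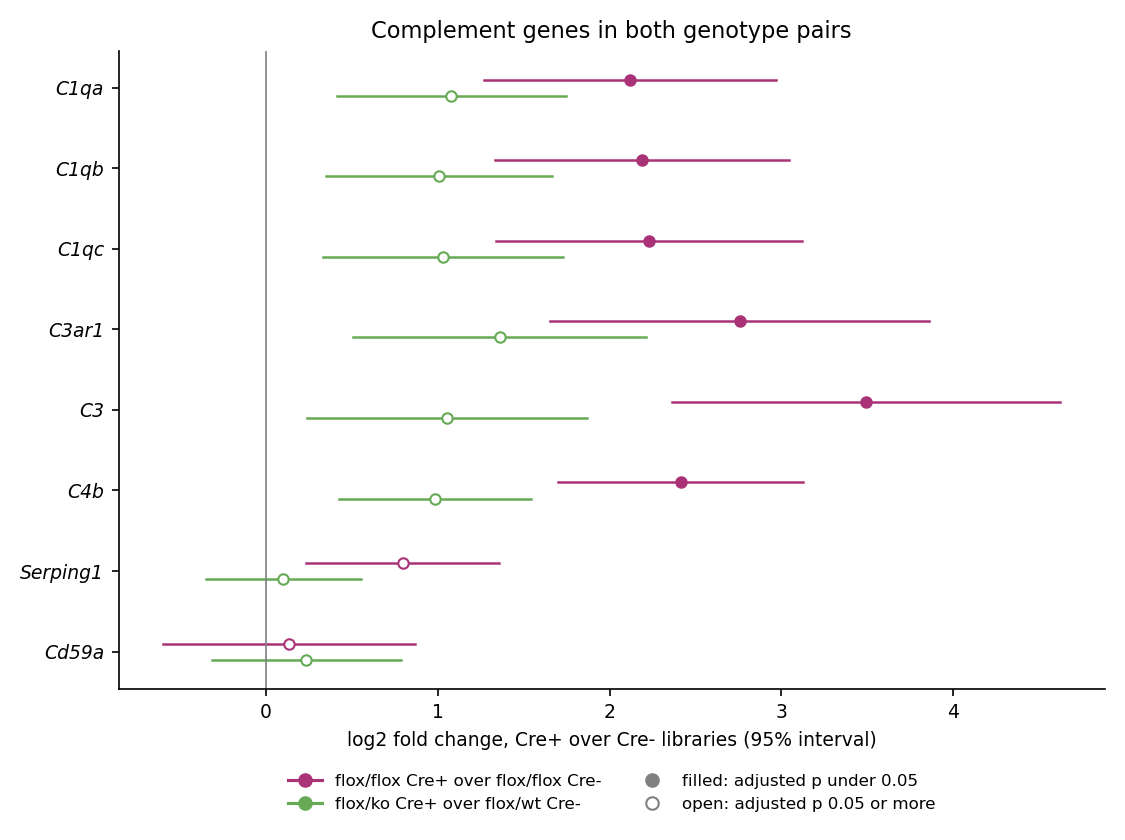
Log2 difference of Cre+ over Cre- libraries with its 95% interval for each complement gene, in the flox/flox pair and in the pair of flox/ko Cre+ and flox/wt Cre-; filled symbols have an adjusted p under 0.05. C3 stands at 3.49 in the first pair and at 1.05 in the second, and the 6 filled symbols are all in the first.

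Among 50 other complement genes listed, 28 were measured, and 2 of them rose and none fell, where 3.12% of all genes rose and 8.07% changed in either direction. With 2 of 28 this is near the share of all genes, and the median log2 difference was 0.02, against 0.01 over all genes. The 2 genes were Itgax and Cd93. Itgax, the integrin chain of complement receptor 4 (CD11c), was at 0.56, 0.206, 0.658, 0.524 and 0.732 CPM in control and at 3.94, 19.9, 2.55, 2.25 and 2.83 CPM in BrapcKO, a log2 difference of 3.26 (SE 0.87, adjusted p = 0.0487). Its groups did not overlap, BrapcKO 05 stood highest, and it reached the table's minimum level in 2 control and 5 BrapcKO libraries. Cd93, a receptor once named for C1q binding and expressed by endothelium, rose from 9.38 ± 3.88 to 17.3 ± 2.94 CPM (SD, n = 5 each; log2 difference 0.67, SE 0.19, adjusted p = 0.0440). Each stayed called in only 3 of the 10 settings that leave out 1 library. Neither was called with the Y-linked level added, at 2.81 (adjusted p = 0.285) for Itgax and 0.49 (adjusted p = 0.383) for Cd93.

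Among these other complement genes, those outside the receptors had no call by edgeR or limma-voom. DESeq2 called 3 of the 14 regulators measured, Csmd2 and Sez6 among them, where it called 1682 of all 14276 genes in either direction. At an unadjusted p under 0.05 stood 6 of the regulators and 1 terminal component, and 22.2% of all genes. Of 14 classical and lectin pathway initiators 6 were measured, with a median log2 difference of 0.18. Of 7 terminal components only C7 (−0.21) and C8g (−0.68) were measured, and of 3 alternative pathway genes only Cfp, properdin (0.03). Of 19 regulators 14 were measured with a median of −0.09. Regulators with small p-values that were not called included Csmd2 at −0.33 (adjusted p = 0.055), Sez6 at 0.32 (adjusted p = 0.089) and Cd55, decay accelerating factor, at −0.47 (adjusted p = 0.154). The remaining integrin chains of complement receptors 3 and 4 differed by 0.60 for Itgam (adjusted p = 0.246) and 1.11 for Itgb2 (adjusted p = 0.225).

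Likeness was measured as Pearson's r of log2 CPM over the 10 libraries, which share group, title code and depth, so it is a description with no test. The genes most like mean C1q were Runx1 (0.990), a transcription factor of blood and microglial lineages, Ctss (0.977), a microglial lysosomal protease, Havcr2 (0.970), Cxcl16 (0.969) and Trim30a (0.967). C3ar1 had an r of 0.978 with mean C1q, C3 0.833, Serping1 0.798, C4b 0.787 and Cd59a −0.423. For C3 the nearest genes were Anxa4 (0.954), Ctse (0.943), Gpnmb (0.939), Spata6 (0.934) and Tram1 (0.927). For C4b they were Anxa4 (0.949), Six3 (0.935), Irak3 (0.931), Pde3a (0.927) and AI467606 (0.914), and for Serping1 Cpne3 (0.944), Trim25 (0.935), Tgfbr2 (0.931), Gna13 (0.929) and Limd1 (0.925). Of the other members, C3ar1 followed mean C1q most closely over the libraries.

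With group and title code subtracted, C3ar1 still had an r of 0.913 with mean C1q, whereas C4b (0.490), Serping1 (0.490) and C3 (0.374) were lower and Cd59a was at −0.397. The nearest genes to mean C1q were then Plcb2 (0.983), Irf9 (0.975), Hmox1 (0.966), Amigo3 (0.964) and Irf8 (0.962). Those nearest to C3 ran from Ecm2 (0.973) through Bmp5, Pde8a and Pi15 to Fa2h (0.940), to C4b from Klf3 (0.979) through Gna13, Tcp11l1 and Cc2d2a to Fa2h (0.941), and to Serping1 from Gprc5b (0.985) through Alox12, Abra and Sox2 to Frmd7 (0.956). BrapcKO 05, which stood apart in C1q and C3ar1, is among the 10 points, and these values without it were not computed.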

How the data were processed

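RNA of mouse cerebral cortex was sequenced in 5 control and 5 BrapcKO libraries. The deposited table holds unnormalised counts of reads for each gene, with 17188901 to 28991874 counts per library. The tools named per the submitters' processing notes are Subread and featureCounts, FastQC, edgeR and DESeq2, and the builds mm10 and GRCm38. For their settings and any use of strand: not given in the sources used here. Symbols, positions and exon lengths come from GENCODE M21 (GRCm38), which matched 14271 of 14276 identifiers.

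Over all genes, edgeR 4.0.16 (R 4.3.3) fitted the counts by quasi-likelihood with robust dispersion and TMM scaling, with title code and group as terms. P-values were adjusted by the Benjamini-Hochberg method over all genes, with a threshold of 0.05. CPM use TMM-scaled totals, except the minimum level of the table, which uses plain totals. An SE is the log2 difference divided by the square root of F. DESeq2 1.42.0, limma 3.58.1 (voom), other terms, scalings and filters, and leaving out each library were alternatives. The fit was tested on simulated data. The labels do not say that each library came from its own animal, so p-values measure the spread between libraries. Likeness used log2 CPM with a prior count of 2.

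The members and lists were chosen with earlier results of these data known. Named genes are every measured member, Brap, other complement genes that were called and the 4 with the next smallest p, and the 5 genes most like C1q, C3, C4b and Serping1; cell type markers and other genes outside that rule were named after their values were seen. Some genes that the rule took are not reported here.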

Additional observations from a re-analysis of the deposited data

Results flagged for a closer look

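In each group of 5 libraries the highest and lowest value of each member was compared with the rest by Dixon's ratio, with a critical value of 0.71. Of 16 groups of values, 6 held a library apart from the others, where chance gives about 1 in 20 for a single group. The groups share libraries, and the C1q genes and C3ar1 vary together, so 6 of 16 cannot be read against that rate. BrapcKO 05 was the highest in 5 of the 6 groups, at 172.8 CPM for C1qa, 111.1 CPM for C1qb, 122.1 CPM for C1qc, 18.9 CPM for C3ar1 and 100.2 CPM for C4b. In the sixth, control 08 was the highest control library for C3ar1, at 2.44 CPM. BrapcKO 05 also had the highest sum of microglia markers (1216 CPM) and of reactive astrocyte markers (1519 CPM). Without it all 6 calls remained, with log2 differences of 1.16 for C1qa, 1.14 for C1qb, 1.14 for C1qc, 1.67 for C3, 1.50 for C3ar1 and 1.36 for C4b.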

How the results depend on the processing

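Of the 8 members, 6 were called with title code and group as terms, and equally with group alone, DESeq2, limma-voom, other scalings and other low-count filters. The Y-linked level in place of the code left 0 called, the code and the Y-linked level together 0, and B1 libraries alone 2. B1 alone holds 4 BrapcKO and 2 control libraries, and Y-linked genes were expressed in 4 BrapcKO libraries and 1 control library. The cause of these lower counts was not tested. Leaving out 1 library gave 0 to 6 called members. Cd59a changed sign to −0.31 with group alone and to −0.29 with the Y-linked level in place of the code. Of the other complement genes, 2 were called; DESeq2 called 5, group alone 1, limma-voom 1, the Y-linked level 0, B1 alone 0, the code and the Y-linked level together 0, and leaving out 1 library 0 to 3. In the flox/flox pair 6 members were called, 1 without the code and 0 to 6 with 1 library left out; in the flox/ko pair 0 were called, and 0 to 5 with 1 library left out. Over all genes, 1152 were called, 617 with group alone, 322 with the code and the Y-linked level, 94 with the Y-linked level alone, 416 in B1 alone, 1682 by DESeq2 and 1172 by limma-voom. Among the 8 members C3 has the lowest depth, with 5 to 31 counts in control. No paired analysis was made, because the labels do not give the litter of each library or any other pairing.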
